A study of Mus musculus with 10 samples.

Results

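The microRNAs described here are the 5 arms mmu-miR-21a-5p, mmu-miR-21a-3p, mmu-miR-221-3p, mmu-miR-222-3p and mmu-miR-210-3p, out of 1892 miRNAs on a one-colour mouse array. They were selected by name, as miRNAs linked to injury, proliferation and hypoxia, with no threshold on their values, though earlier results of these data were known. The arrays came from 5 samples titled T-C cell and 5 samples titled control cell. T-C cell samples carry the source label Col-/-, and control cell samples the source label Control Col. The labels of both groups give male animals, a liver cell culture protocol and the description sle liver. The treatment label gives 0.5 mg of TN-CF to a dish of 100000 T-C cells over 24 hours, with a control, and the design text writes TB-CF. The labels do not spell out T-C, TN-CF, Col or sle, and source and treatment differ together between the groups, so they cannot be told apart. Whether replicates are separate animals or dishes is not stated, so the p-values rest on a spread between samples that may be purely technical.

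miRNAs are short RNAs that lower the output of messenger RNAs whose 3' ends pair with the seed, bases 2 to 8 of the miRNA. miR-21 is abundant in many tissues, increases in injured and fibrotic tissue, and represses Pdcd4, a brake on translation and growth. miR-221 and miR-222 are made together from neighbouring hairpins and repress the cell cycle inhibitor p27 (Cdkn1b) and the receptor Kit. miR-210 is the miRNA most closely tied to low oxygen, since HIF-1 induces it, and it represses Iscu, an iron-sulphur cluster assembly factor of mitochondria.

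The target sequences on the array show which of these miRNAs can act on the same messages. Each is written 5′ to 3′ as deposited, with the seed in capitals:
mmu-miR-21a-5p: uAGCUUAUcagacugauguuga
mmu-miR-21c: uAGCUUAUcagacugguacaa
mmu-miR-21b: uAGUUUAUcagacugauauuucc
mmu-miR-21a-3p: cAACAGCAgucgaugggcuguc
mmu-miR-221-3p: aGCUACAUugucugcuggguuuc
mmu-miR-222-3p: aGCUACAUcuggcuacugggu
mmu-miR-210-3p: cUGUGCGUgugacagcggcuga

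miR-221-3p and miR-222-3p have the same first 8 bases and hence the same seed. Over the 21 bases that can be set side by side without a gap, 11 are identical. miR-1928, which is not one of the 5, also carries this seed. miR-21a-5p shares its seed with miR-21c and miR-590-5p. miR-21c has the first 15 bases of miR-21a-5p and then differs by A16G, G18A, U19C, U20A and G21A, counted from the 5′ end of miR-21a-5p. miR-21b differs from miR-21a-5p by C4U inside the seed and by G18A, G21U and A22C beyond it. No other miRNA on the array has the seed of miR-21a-3p or that of miR-210-3p. In the RefSeq miRNA table on GRCm38.p6 (a build the array files do not name), the 5p and 3p arms of miR-21a lie on the minus strand of chromosome 11 at 86584120 to 86584141 and 86584082 to 86584103, in an exon of the protein-coding gene Vmp1 by GENCODE M21. miR-221-3p and miR-222-3p lie on the minus strand of chromosome X at 19146307 to 19146329 and 19146901 to 19146923, and 504 bases separate their hairpins. No other annotated gene covers that pair. miR-210-3p lies on the minus strand of chromosome 7 at 141221407 to 141221428, also outside other annotated genes. RefSeq holds the same sequences, except that its miR-222-3p has 23 bases and the array's target has 21.

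The value of a miRNA on an array is the mean of the median brightness of its 2 spots, deposited as raw intensity with no scaling between arrays. Blank spots, which carry no probe, averaged 54.9 to 227 per array. A miRNA was called detected when it exceeded the average of its array's 16 blanks by 3 SD, a limit of 64.0 to 474, and between 189 and 1314 miRNAs passed it per array. Levels for comparison are log2(intensity + 50), scaled between arrays by cyclic loess. Brightness depends on the probe, so it can be compared for 1 miRNA between arrays but not between miRNAs. The array of T-C cell replicate 1 was the most distant, with a score of −15.8 on the first principal component, while T-C cell replicates 2 to 5 scored −5.10 to −1.34 and control cell replicates 1.63 to 8.05. Of 3 hepatocyte markers, miR-192-5p and miR-194-5p were detected on 10 of 10 arrays, and miR-122-5p, the most specific of them, on 1 of 10, at 57.8 to 193 on the raw scale. The summed raw intensity of the 3 ran from 16783 to 32802 on T-C cell arrays, against 20103 to 31278 on control cell arrays. All 4 fibroblast and smooth muscle markers (miR-143-3p, miR-145a-5p, miR-199a-3p, miR-214-3p) and all 4 epithelial markers of the miR-200 family were detected on 10 of 10 arrays. The summed raw intensity of 4 leukocyte markers ran from 1837 to 4721 on T-C cell arrays, against 1496 to 1993 on control cell arrays. Of these, miR-150-5p was detected on 10 arrays, miR-223-3p on 8, miR-142-5p on 7 and miR-142-3p on 5. The sums are not scaled between arrays, and the brightest probes weigh most in each, so they do not measure cell content. Sums of endothelial markers ran from 2873 to 5221 on T-C cell arrays, against 3023 to 3910 on control cell arrays. Erythroid markers gave 729 to 1502 against 583 to 1219, and muscle markers 1855 to 2859 against 2608 to 2998. Fibroblast and smooth muscle markers gave 29564 to 54887 against 36609.5 to 44015, and epithelial markers 14728 to 26424 against 14692 to 26128. Endothelial miR-126a-5p and erythroid miR-144-3p were each detected on 1 of 10 arrays. The part of these cell types in the values below was not tested. In bulk RNA, fewer cells of a type and less RNA per cell cannot be told apart.

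Of the 5 miRNAs, 4 were detected on all 10 arrays and entered the test over 476 miRNAs, and miR-21a-3p did not. None of the 4 passed. Across all 476, limma called 37 miRNAs at an adjusted p of 0.05, which is 7.77%, of which 7 rose and 30 fell in T-C cell samples. Leaving out T-C cell replicate 1 gave 12 calls, leaving out T-C cell replicate 4 gave 2, and leaving out control cell replicate 1, 2, 3 or 5 gave at most 3. Among the 176 miRNAs detected on all 10 arrays, 9 rose and 9 fell. By limma, 0 of the 4 had an unadjusted p under 0.05, against 87 of the 476. Groups without overlap were found for 18 of the 476 miRNAs, or 3.78%, and for 0 of the 4. The 4 differences lay between −0.26 and −0.07 on the log2 scale, beside a median of 0.02 over all tested miRNAs with lower and upper quartiles of −0.15 and 0.17.

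miR-21a-5p was among the brightest miRNAs of every sample, with ranks of 5 to 13 of 1892 on T-C cell arrays and 4 to 8 on control cell arrays. Its raw intensity was 10893, 13391, 14203, 15929 and 10468 in T-C cell replicates 1 to 5, against 16072, 15609, 15123, 14012 and 17544 in control cell replicates 1 to 5. On the raw scale T-C cell replicates 1, 2 and 5 lay below every control cell array, and replicates 3 and 4 lay inside the control range. Between 63.6 and 133 times the blank mean in T-C cell arrays and between 68.6 and 319 times in control cell arrays, it was far from the detection limit throughout. The normalized log2 level averaged 13.59 ± 0.16 in T-C cell samples, against 13.85 ± 0.14 in controls (SD, n = 5 per group). After normalization 4 of 5 T-C cell samples, all but replicate 3, were below the lowest control cell sample, while control cell replicate 2 was the highest of all. The difference of −0.26 (SE 0.13, 95% interval −0.54 to 0.03) did not pass (limma adjusted p = 0.362). In terms of fold, T-C cell samples had 0.837 times the control level, with an interval of 0.686 to 1.02. The sign was negative with all arrays and under all 23 alternative settings, with differences from −0.39 to −0.16, and the call did not pass in any of them.

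**Figure D1:**
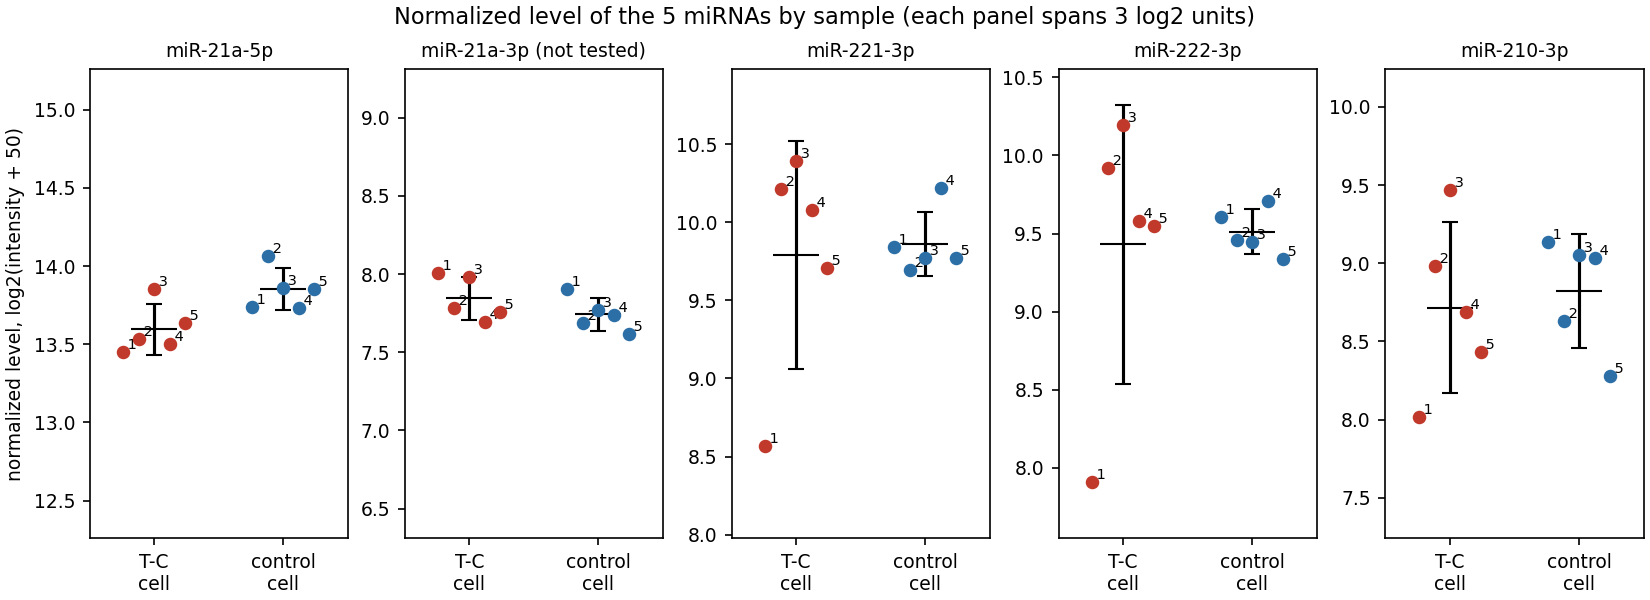
Normalized level, log2(intensity + 50), of the 5 miRNAs in T-C cell samples (red, left in each panel) and control cell samples (blue, right), with replicate numbers beside the points; bars are mean ± SD, n = 5, and every panel spans 3 log2 units. T-C cell replicate 1 is the lowest point for miR-221-3p, miR-222-3p and miR-210-3p, while the 2 groups of miR-21a-5p lie within 0.62 of each other from the lowest to the highest sample.

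miR-21a-3p, the arm opposite miR-21a-5p on the same hairpin and usually the discarded strand, was near background. Its raw intensity was 156, 129, 337, 159 and 190 in T-C cell replicates 1 to 5, against 136, 200, 212, 158 and 70.7 in control cell replicates 1 to 5. It exceeded the limit on 2 of 10 arrays, T-C cell replicate 1 and control cell replicate 5. The value of control cell replicate 5, 70.7, was the lowest of all 10 and passed the lowest limit of all arrays, 64.0. The high value of T-C cell replicate 3 went with the highest limit of all arrays, 474, and was not a detection. Relative to the blank mean, it was 0.947 to 1.90 times as bright in T-C cell and 0.878 to 1.40 times in control cell arrays. With no filter on low values, its difference was 0.10 (SE 0.08, limma adjusted p = 0.903).

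The level of miR-21a-3p minus that of miR-21a-5p within an array was −5.75 ± 0.18 in T-C cell samples, against −6.11 ± 0.21 in controls (SD, n = 5 per group). This is higher by 0.36 in T-C cell samples (exact two-sided permutation p = 0.0238, adjusted p = 0.0476 over the 2 pairs compared). The groups overlapped, and control cell replicate 1, at −5.84, lay inside the T-C cell range of −5.88 to −5.45. Since miR-21a-3p was below the limit on 8 of 10 arrays, the pair sets a bright probe against one near background. Without T-C cell replicate 1 it was 0.21 (exact two-sided permutation p = 0.143), and in 14 of 19 alternative settings it did not pass.

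The array's other probes of this family stayed at background beside the bright miR-21a-5p, in spite of their shared bases. miR-21b was below the limit on all 10 arrays, at 71.5 to 274 in T-C cell and 57.8 to 182 in control cell arrays. miR-21c was detected on 1 of 10, control cell replicate 1, where its 2 spots read 110 and 241, the largest disagreement between spots among the 12 miRNAs described. miR-590-5p was below the limit on all 10 arrays. Each of these had between 0.742 and 1.75 times the brightness of the blank spots on its own array.

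miR-221-3p, which with miR-222-3p restrains p27, was 518, 951, 1023, 1297 and 732 on the raw scale in T-C cell replicates 1 to 5, against 845, 734, 854, 1085 and 768 in control cell replicates 1 to 5. T-C cell samples held both ends of the range, with replicate 1 the lowest and replicate 4 the highest of all 10. The normalized level was 9.79 ± 0.73 in T-C cell samples, against 9.86 ± 0.21 in controls (SD, n = 5 per group). Their difference of −0.07 (SE 0.30, 95% interval −0.73 to 0.59) did not pass (limma adjusted p = 0.933). The sign was not stable. T-C cell replicate 1 had a level of 8.57 and a rank of 259 in its array, against levels of 9.71 to 10.39 in the other T-C cell arrays. Without it the difference was 0.24 (SE 0.18, limma adjusted p = 0.596). It was also positive, at 0.02 to 0.13, without control cell replicate 4 and under 4 of the settings that kept all arrays, 0.06 with quantile normalization among them.

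miR-222-3p read 307, 744, 883, 884 and 658 in T-C cell replicates 1 to 5, against 677, 608, 675, 754 and 535 in control cell replicates 1 to 5. Here too T-C cell replicate 1 was the lowest of all arrays, while T-C cell replicates 3 and 4 were the highest. The normalized level was 9.43 ± 0.89 in T-C cell samples, against 9.51 ± 0.14 in controls (SD, n = 5 per group). The difference of −0.08 (SE 0.35, 95% interval −0.85 to 0.69) did not pass (limma adjusted p = 0.933). Without T-C cell replicate 1, whose level was 7.91, the T-C cell mean was 9.81 ± 0.31 (SD, n = 4). The difference was then 0.30 (SE 0.18, limma adjusted p = 0.464), and with quantile normalization of all 10 arrays it was 0.02. The spread of both miRNAs in T-C cell samples came mainly from this array: without it the SD of miR-221-3p was 0.29.

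miR-221-3p and miR-222-3p moved together from array to array. Over the 10 arrays, which share a platform and a scaling step, Pearson's r was 0.97 (permutation p = 0.00014) and Spearman's rho 0.87 (permutation p = 0.00206), in the only correlation tested between members. These p-values are against no correlation, and do not show a link particular to the pair. let-7a-1-3p, which has another seed, also had an r of 0.94 with miR-221-3p. Leaving out T-C cell replicates 1 and 3, the arrays farthest from the median of miR-221-3p, r of the pair was 0.81 and rho 0.74. Without T-C cell replicate 1 alone r was 0.88, and on unscaled log2 intensities over 10 arrays it was 0.91. Their ratio did not separate the groups: miR-222-3p minus miR-221-3p was −0.36 ± 0.21 in T-C cell samples, against −0.35 ± 0.12 in controls (SD, n = 5 per group, exact two-sided permutation p = 0.921, adjusted p = 0.921 over 2 pairs). On T-C cell replicate 1 that ratio was −0.66, the lowest of all arrays. The opposite arms miR-221-5p and miR-222-5p were below the limit on 10 of 10 arrays. miR-1928, named after its values were seen because it has the same seed, was detected on 1 of 10.

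**Figure D2:**
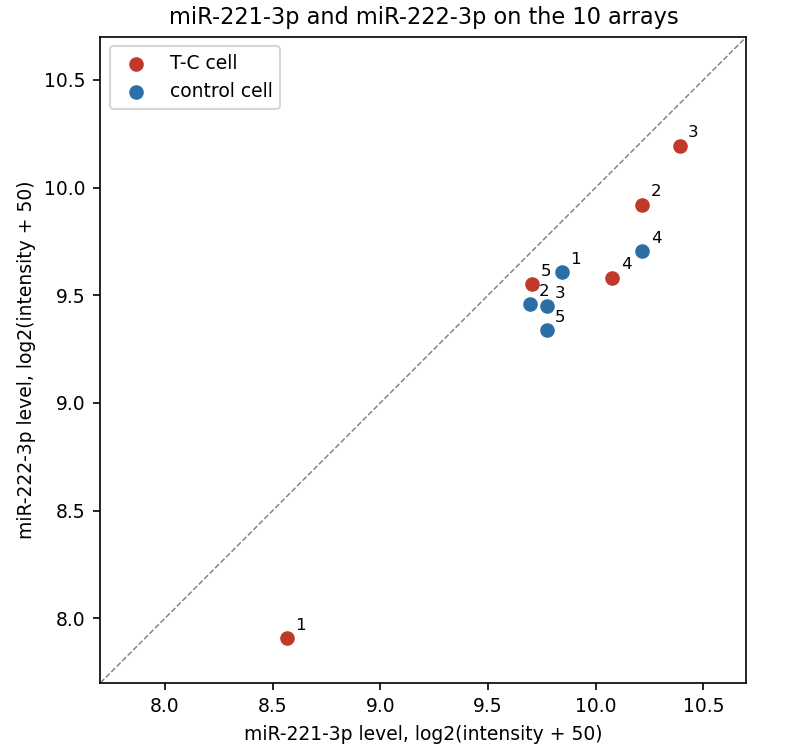
Normalized level of miR-222-3p (vertical) against miR-221-3p (horizontal), both log2(intensity + 50), on the 5 T-C cell (red) and 5 control cell (blue) arrays with replicate numbers; the dashed line marks equal levels. The arrays form a band with r = 0.97, T-C cell replicate 1 lies alone at 8.57 and 7.91, and r is 0.88 without it.

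miR-210-3p, the hypoxia-induced arm, was dimmer but detected on all 10 arrays. Relative to the blank mean, it was 1.78 to 3.57 times as bright in T-C cell and 1.45 to 4.22 times in control cell arrays. On control cell replicate 2 it was close to the limit, at 330 against 319. It read 294, 350, 599, 427 and 287 in T-C cell replicates 1 to 5, against 424, 330, 496, 439 and 212 in control cell replicates 1 to 5. The highest value, in T-C cell replicate 3, went with a high blank mean of 223 on that array, and the lowest, in control cell replicate 5, with the lowest blank mean of all, 54.9. The normalized level was 8.72 ± 0.55 in T-C cell samples, against 8.82 ± 0.36 in controls (SD, n = 5 per group), and the groups overlapped over most of their range. The difference of −0.11 (SE 0.27, 95% interval −0.70 to 0.48) did not pass (limma adjusted p = 0.889). After scaling, T-C cell replicate 1 was the lowest at 8.02. Before scaling it was not, since its 294 lay above T-C cell replicate 5 and control cell replicate 5. Relative to the blank mean it was the brightest of the T-C cell arrays. Without T-C cell replicate 1 the difference was 0.08 (SE 0.25, limma adjusted p = 0.961).

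The opposite arm miR-210-5p was detected on 7 of 10 arrays and also tested. Its raw intensity was 360, 207, 358, 240 and 238 in T-C cell replicates 1 to 5, against 209, 234, 270, 273 and 114 in control cell replicates 1 to 5. On T-C cell replicate 1, where miR-210-3p was at its lowest normalized level, miR-210-5p was at the highest of any array, 8.54. Its difference was 0.14 (SE 0.14, 95% interval −0.16 to 0.43, limma adjusted p = 0.697).

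**Figure D3:**
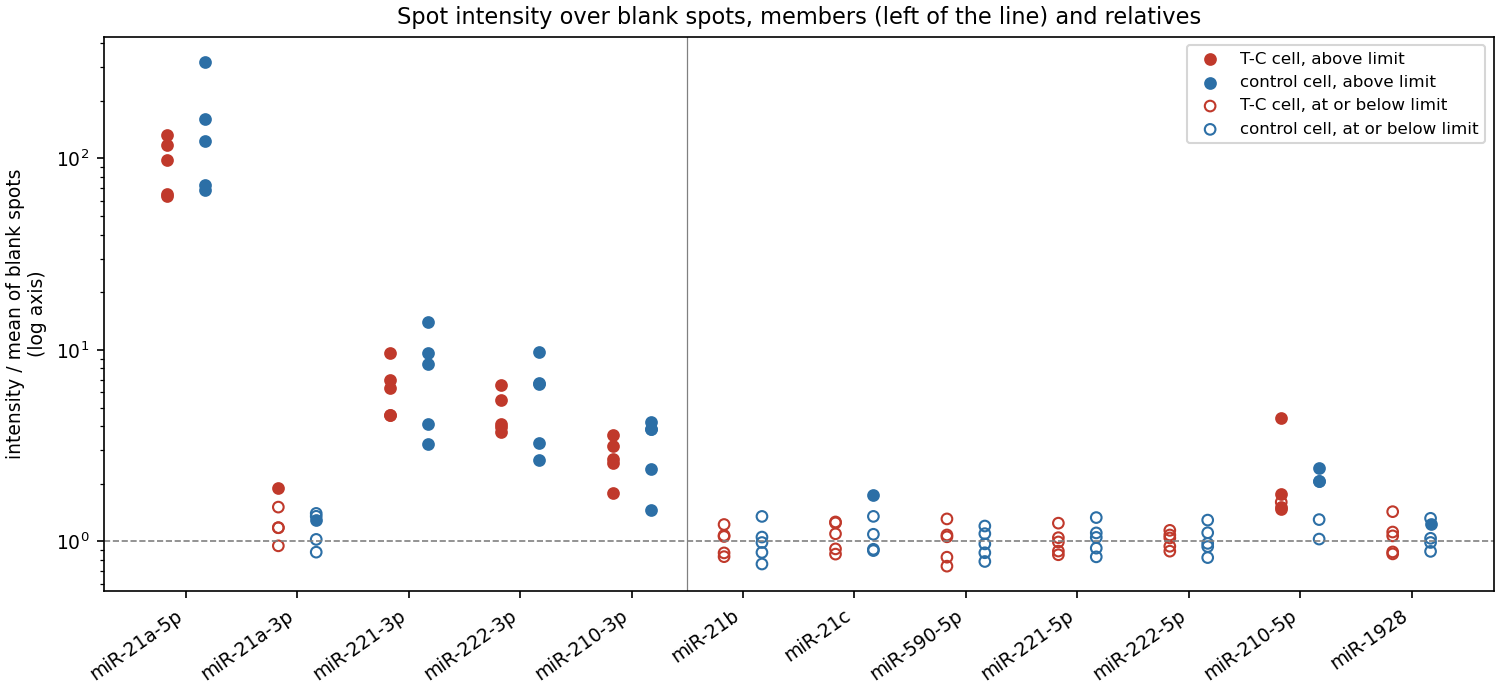
Raw intensity divided by the mean of the blank spots of the same array (log axis) for the 5 miRNAs, left of the vertical line, and 7 others, right of it, that are opposite arms, share a seed or, for miR-21b, resemble miR-21a-5p; T-C cell is red and stands left of control cell in blue, filled points exceed the array's detection limit and open points do not. miR-21a-5p lies 63.6 to 319 times above the blanks, miR-221-3p, miR-222-3p and miR-210-3p are filled on all 10 arrays, and miR-21a-3p is filled on 2.

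The 2 spots of each miRNA give the technical error within an array. Over the 40 spot pairs of the 4 tested miRNAs the brighter spot exceeded the dimmer by a median of 1.07 times and at most 1.27 times. This covers no variation between arrays or samples.

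Among other miRNAs linked to low oxygen, none passed. All 18 listed members, miR-210-3p among them, were tested, and 0 passed by limma, beside 7.77% of all 476. At an unadjusted p under 0.05 there were also 0 of 18, beside 87 of 476. Differences ran from −0.17 to 0.50 with a median of 0.05, beside 0.02 for all tested miRNAs, and 12 of 18 were positive. The smallest p belonged to miR-125b-5p, a let-7 cluster partner, at 12.65 ± 0.29 in T-C cell samples, against 12.16 ± 0.50 in controls (SD, n = 5 per group, limma adjusted p = 0.302). miR-181a-5p and miR-181b-5p, relatives that tune T-cell signalling, differed by 0.19 (limma adjusted p = 0.614) and 0.22 (limma adjusted p = 0.659).

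Of 23 miRNAs listed for injury and fibrosis, 22 were on the array and 19 were tested, miR-21a-5p, miR-221-3p and miR-222-3p among them. By limma 1 rose, 1 fell and 17 did not pass, a share near the 7.77% called over all 476, and the median difference was −0.07. The one that fell was miR-29a-3p, a repressor of collagen genes, at 8.18 ± 0.45 in T-C cell samples, against 12.63 ± 0.15 in controls (SD, n = 5 per group, limma adjusted p = 3.74e-08). The one that rose was miR-150-5p, a lymphocyte miRNA, at 10.82 ± 0.44 in T-C cell samples, against 9.95 ± 0.33 in controls (SD, n = 5 per group, limma adjusted p = 0.0433). Its difference of 0.86 stayed positive in 23 alternative settings, but the call held in 10 of them, and it ended when 1 array was dropped, be it replicate 1, 4 or 5 of T-C cell or replicate 1, 2, 3 or 5 of control cell (limma adjusted p from 0.0839 to 0.109). miR-150-5p is also 1 of the 4 leukocyte markers, whose summed intensity is given above, and their part in this difference was not tested. The difference of miR-29a-3p was −4.45, and its call held in all 22 alternatives that tested it. Its size depended on the processing, from −3.84 with 200 added to −6.96 with blanks subtracted (limma adjusted p = 0.0111 for the latter). miR-29b-3p, with the third smallest p of the list, differed by −0.88 (limma adjusted p = 0.0932). Their relative miR-29c-3p, also in the list, had a difference of the other sign, 0.19 (limma adjusted p = 0.835). Both lists were drawn up with earlier results of these data known, so their counts are descriptions. By p, miR-21a-5p ranked 4 in this list, and miR-221-3p and miR-222-3p ranked 17 and 18 of 19.

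**Figure D4:**
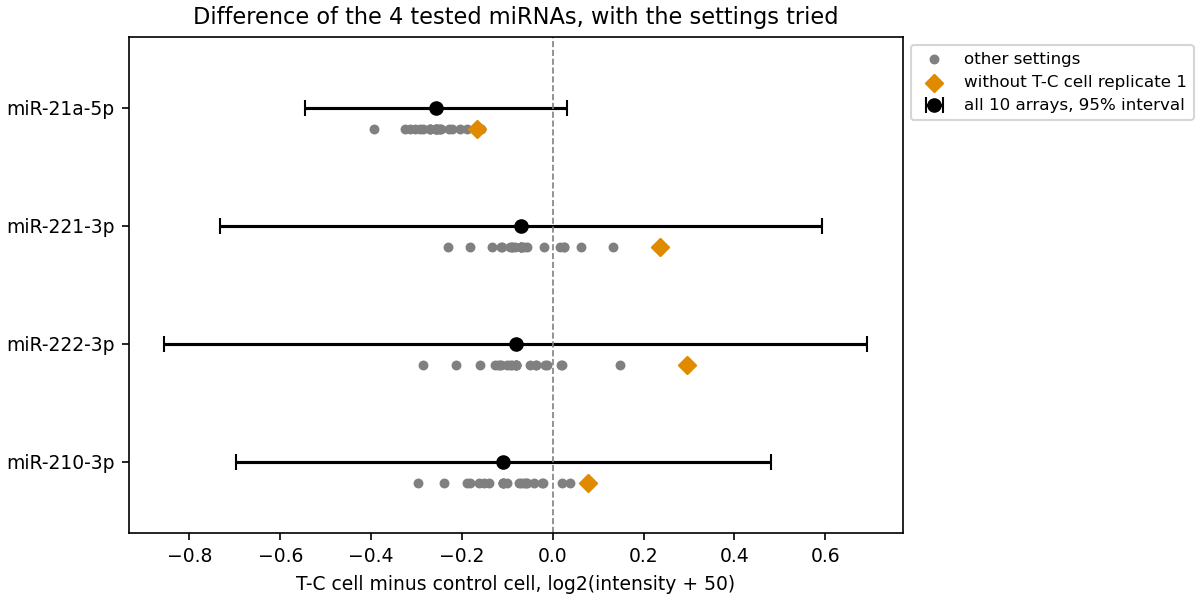
Difference, T-C cell minus control cell, in log2(intensity + 50) for the 4 tested miRNAs; black points with bars are the values with all 10 arrays and their 95% intervals, grey points the other settings tried, and orange diamonds the values without T-C cell replicate 1. All 4 intervals include 0, the diamonds of miR-221-3p, miR-222-3p and miR-210-3p lie at 0.24, 0.30 and 0.08, and every point of miR-21a-5p is below 0.

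Likeness of pattern was measured as Pearson's r of the normalized level over the 10 arrays, against the 475 other tested miRNAs, and is a description. miR-21a-5p was closest to miR-6942-3p, miR-8112 and miR-7016-5p, with r of 0.89, 0.87 and 0.87, and without T-C cell replicate 1 of 0.85, 0.83 and 0.86. miR-221-3p was closest to miR-222-3p, at 0.97, then to let-7a-1-3p and miR-195a-5p at 0.94 and 0.93. Without that array these were 0.88, 0.88 and 0.92, and miR-222-3p ranked 11 among the miRNAs most like miR-221-3p, so its first place rests on T-C cell replicate 1. Likewise miR-222-3p was closest to miR-221-3p, then to miR-22-5p and miR-132-3p at 0.94 and 0.93. Without that array miR-221-3p ranked 13 for miR-222-3p, and the other two r values were 0.67 and 0.57. miR-210-3p was closest to miR-24-3p, miR-192-3p and miR-872-5p, at 0.92, 0.91 and 0.91, and 0.91, 0.89 and 0.86 without it. Between the members, miR-210-3p had an r of 0.78 with miR-221-3p and 0.80 with miR-222-3p, and 0.67 and 0.75 without T-C cell replicate 1. miR-21a-5p followed the other 3 less closely, with r of 0.27 to 0.36 over 10 arrays and −0.37 to 0.02 without that array.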

How the data were processed

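Per the labels, 1 µg of total RNA was poly(A)-tailed, tagged and Cy3-stained by LC Sciences. Per the file headers, the authors deposited the median intensity of each spot as raw values, and a second pair of columns is empty. Scanner, software and miRBase version: not given in the sources used here. Groups come from sample titles.

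Spots were converted to log2(intensity + 50), averaged per miRNA and normalized by cyclic loess. miRNAs detected on at least 5 of 10 arrays were compared with limma 3.58.1 in R 4.3.3 (eBayes with trend, two-sided, Benjamini-Hochberg over 476 miRNAs, threshold 0.05). The procedure was tested on 10 sets of simulated arrays in which 200 of the 476 miRNAs were changed. It called 88.3% of changes of 1 log2 unit, 99% of changes of 2, and 4.64% of unchanged miRNAs. In the data only 37 of the 476 were called, and Benjamini-Hochberg calls more readily when many miRNAs change. These rates therefore do not carry over to the data. Noise was drawn independently for each miRNA, so the simulation does not cover shifts of whole arrays such as T-C cell replicate 1. For the within-array differences of 2 pairs, exact two-sided permutation in R ran through 252 divisions of the arrays, whose smallest p is 0.00794. The correlation was tested by 100000 permutations (Python 3.11.15, scipy 1.17.1). The number of arrays limits the precision. Named were the 5 members, their other arms, seed relatives and miR-21b, and the 3 miRNAs most like each tested member. Of 2 lists, those that passed, the 3 with the smallest p and miR-29c-3p were named. Members, although selected by name, and lists were chosen with earlier results of these data known. The settings tried changed scaling, added constant, filter, spot, variance model, weights and replicate block, and left out each array in turn.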

Additional observations from a re-analysis of the deposited data

Results flagged for a closer look

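Dixon's test of a sample far from the rest of its group was applied to the normalized levels of the 5 miRNAs and to the 2 within-array differences, 14 groups of 5 in all, of which chance flags about 1 in 20. It flagged 2 samples. miR-222-3p in T-C cell replicate 1 had a level of 7.91, far below the next T-C cell sample at 9.55, and the gap was 0.719 of the group's range against a critical value of 0.71. miR-221-3p in control cell replicate 4 had a level of 10.22, above the next control cell sample at 9.84, and the gap was also 0.719 of the range. Neither sample was flagged for both miRNAs: the gap of miR-221-3p in T-C cell replicate 1 was 0.624 of its range.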

How the results depend on the processing

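None of the 4 tested miRNAs passed under any of 23 alternatives, and only the direction of miR-21a-5p held in all. With quantile normalization the differences of miR-221-3p, miR-222-3p and miR-210-3p turned to 0.0618, 0.0213 and 0.0212. Without normalization, which moved the median of all tested miRNAs to 0.14, they were 0.0253, 0.0189 and 0.0372. With array weights miR-221-3p and miR-222-3p were 0.13 and 0.15, and with blanks subtracted to a floor of 1 miR-221-3p was 0.0239. With single arrays left out, miR-221-3p ranged from −0.23 to 0.24, miR-222-3p from −0.29 to 0.30 and miR-210-3p from −0.30 to 0.0774. All 3 were positive when T-C cell replicate 1 was dropped, and miR-221-3p also when control cell replicate 4 was.

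miR-222-3p minus miR-221-3p was 0.00245 with 200 added and 0.0197 on the second spot, and −0.0633 to 0.0595 with arrays left out. miR-21a-3p minus miR-21a-5p did not pass at 0.42 (quantile), 0.53 (median centring or no normalization), 0.29 and 0.41 (200 and 1 added), 0.64 (blanks subtracted) and 0.24 (first spot), and ranged from 0.21 to 0.46 with arrays left out. Dropping any 1 of T-C cell replicates 1 to 4 or of control cell replicates 2 and 3 ended its call.

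The count of 37 calls was 14 with median centring, 3 with blanks subtracted, 1 with no filter, 18 with detection on all 10 arrays, and 1 to 44 with arrays left out. Dropping T-C cell replicate 1 gave 12 calls and T-C cell replicate 4 gave 2, while each of control cell replicates 1 and 5 gave 3 and each of control cell replicates 2 and 3 gave 1. The split of 7 higher and 30 lower was 14 and 33 with quantile normalization, 1 and 13 with median centring, and 9 and 9 with detection on all 10 arrays. miR-181b-5p turned to −0.22 with blanks subtracted. The cause was not tested.

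By the labels, same-numbered samples share only a number. Their deviations correlated from −0.20 to 0.26, and 1 of 5 T-C cell and 0 of 5 control cell samples correlated best with its own number. Whether they share a day or batch is not stated, and these correlations cannot settle it. With the replicate block, 22 miRNAs passed and none of the 4 did, and miR-150-5p no longer passed (limma adjusted p = 0.0683). miR-21a-3p minus miR-21a-5p stayed at 0.36 (exact sign-flip p = 0.0625, the smallest that 5 pairs allow).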
